A study of Mus musculus with 2 samples.

Results

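Mitochondrial solute carriers were examined on 2 Affymetrix 3' arrays, 1 for each genotype, of neutrophils cultured from wild-type or mir-223 knockout mouse bone marrow. The carriers were all genes whose symbol begins with Slc25a and for which a probe set was annotated to that gene alone. This rule gave 44 genes with 93 probe sets, of 18193 genes measured. Each gene took its brightest probe set by the mean of log2(intensity + 16) over both arrays, so measured levels picked the probe set but not the gene.

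Both cultures came from male C57BL/6 mice. Haematopoietic progenitors had been grown for 6 days with granulocyte colony-stimulating factor and stem cell factor, and cycloheximide, a translation inhibitor, was given to both at 100 ug/ml for the last 8 min. Genotype was thus the only labelled difference, and the labels do not say how many animals stood behind each culture. With 1 array per genotype there was no replicate to check a difference against, so tests, standard errors and p-values are absent. Every difference is knockout minus wild type on the log2(intensity + 16) scale and compares these arrays only, which limits its precision. In such bulk samples, fewer cells of a type and less RNA per cell cannot be told apart.

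The Slc25 family consists of carriers of the inner mitochondrial membrane, with a few members in other organelle membranes. Each carrier moves a small set of metabolites, such as ADP and ATP, phosphate, citrate, amino acids or cofactors, between cytosol and matrix. They are encoded in the nucleus, made on cytosolic ribosomes and inserted into the membrane by dedicated import complexes. Mature neutrophils depend largely on glycolysis, whereas their dividing precursors have more active mitochondria.

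The microRNA lost in the knockout is encoded on the X chromosome and yields 2 mature arms. Both arms are shown here with their seeds (bases 2 to 8) in capitals. The sequences are those of RefSeq on GRCm38.p6, on the plus strand at chrX:96242842-96242864 for the 5p arm and chrX:96242884-96242905 for the 3p arm. No probe set was annotated to this gene, so its loss could not be checked on the arrays. No transcript sequence was searched for matches to these seeds.
mmu-miR-223-5p: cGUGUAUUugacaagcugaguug
mmu-miR-223-3p: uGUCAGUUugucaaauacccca

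No carrier differed strongly between the genotypes. Of the 44 genes, 36 counted as expressed, meaning a mean at or above the median of all probe sets (5.64 on the log2 scale, an intensity of 33.9). Their differences ran from -0.25 for Slc25a26 to 0.29 for Slc25a16, with a median of -0.035, while the median over all 11006 expressed genes was -0.00037. No carrier reached 1 (2-fold) or 0.5 (1.41-fold) in either direction. Among all expressed genes, 0.0999% were higher and 0.0454% lower by 1 or more, and 1.13% were higher and 0.591% lower by 0.5 or more. By 0.25 or more (1.19-fold), 2 carriers were higher, Slc25a16 and Slc25a47, against 8.07% of expressed genes, and 1 was lower, Slc25a26, against 4.80%. These shares are near the background and are no result about the carriers.

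**Figure D1:**
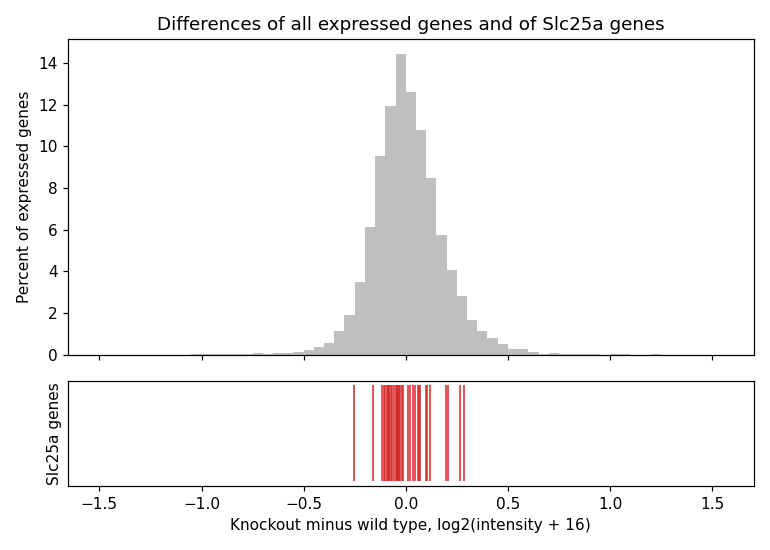
The upper panel shows the share of all 11006 expressed genes in steps of the difference, knockout minus wild type on the log2(intensity + 16) scale, and each line in the lower panel is 1 of 36 expressed Slc25a genes. The carriers lie between -0.25 and 0.29. Of all expressed genes, 4.72% stand at or below the lowest carrier and 5.88% at or above the highest.

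By sign alone, 14 carriers were higher and 22 lower, while 49.7% of all expressed genes were higher. Within 0.1 of no difference lay 24 of 36 carriers (66.7%), against 49.7% of expressed genes. The SD of the differences was 0.12 over the carriers and 0.18 over all expressed genes, at similar median levels of 8.42 and 8.27 on the log2 scale. The spread among a gene's own expressed probe sets was as large as most of these differences. It amounted to an SD of 0.14 over 5017 genes and 0.15 over the 18 carriers with more than 1 expressed probe set. Only 8 of these 18 carriers had all expressed probe sets on the same side of 0 (44.4%), against 51.9% of the 5017 genes. This spread is not a replicate error, but it shows that the sign of a small difference often depended on the probe set.

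**Figure D2:**
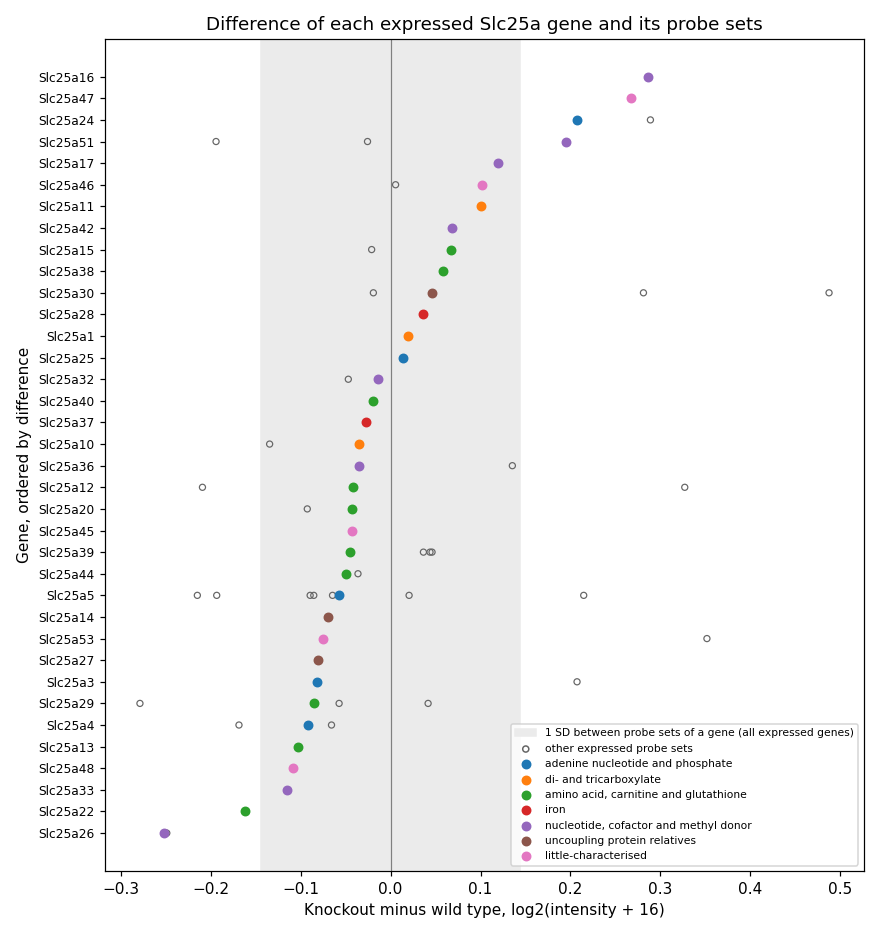
Filled points are the difference of each of the 36 expressed Slc25a genes on its chosen probe set, coloured by role group, and open points are its other expressed probe sets. The shaded band is 1 SD (0.14) between probe sets of a gene on each side of 0. Chosen probe sets lie above the band for 4 genes (Slc25a16, Slc25a47, Slc25a24 and Slc25a51) and below it for 2 (Slc25a22 and Slc25a26). The share of all expressed genes outside this band is not given here, so these carriers are not shown to stand out. For comparison, 88.9% of the 36 carriers and 79.6% of all 11006 expressed genes lay within 0.2 of no difference.

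Carriers of adenine nucleotides and phosphate supply ATP synthase with its substrates and export its product. Of 9 measured, 5 were expressed, 2 higher and 3 lower, with a median of -0.057. The median turned to 0.062 with the mean of all probe sets, which includes those below the expression cut. That value is the one of Slc25a25, with 1 of its 3 probe sets expressed. Without probe sets of shared suffix classes the median was 0.11. Slc25a5, the ADP/ATP carrier of proliferating cells, gave intensities of 8109.96 in wild type and 7793 in the knockout (-0.057). Of its 8 expressed probe sets, 6 were lower, and the range was -0.21 to 0.21. Slc25a4, the ADP/ATP carrier best known from muscle, gave intensities of 1812 and 1699 (-0.092). Its 3 expressed probe sets were all lower, from -0.17 to -0.066. The chosen probe sets of both ADP/ATP carriers have suffixes that mark sequence shared between transcripts. On these probe sets, signal from near-identical transcripts could not be separated. Slc25a5 also had an expressed probe set without such a suffix, at 943 in wild type and 822 in the knockout (-0.19).

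Slc25a3, the phosphate carrier, stood at 4923 and 4651 (-0.082), and a dim probe set of the same gene gave 0.21. Slc25a24, a calcium-regulated carrier that exchanges ATP-Mg for phosphate, had the largest difference of this group, at intensities of 1725 in wild type and 1994 in the knockout (0.21). It was among the few carriers whose probe sets were both higher, since the other gave 311 and 384 (0.29). Even so, 11.3% of all expressed genes stood at or above 0.21. Its relative Slc25a25 was level, at 140 and 142 (0.013). The remaining ATP-Mg/phosphate carriers Slc25a23 and Slc25a41, their relative Slc25a54 and the testis ADP/ATP carrier Slc25a31 were not expressed.

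**Figure D3:**
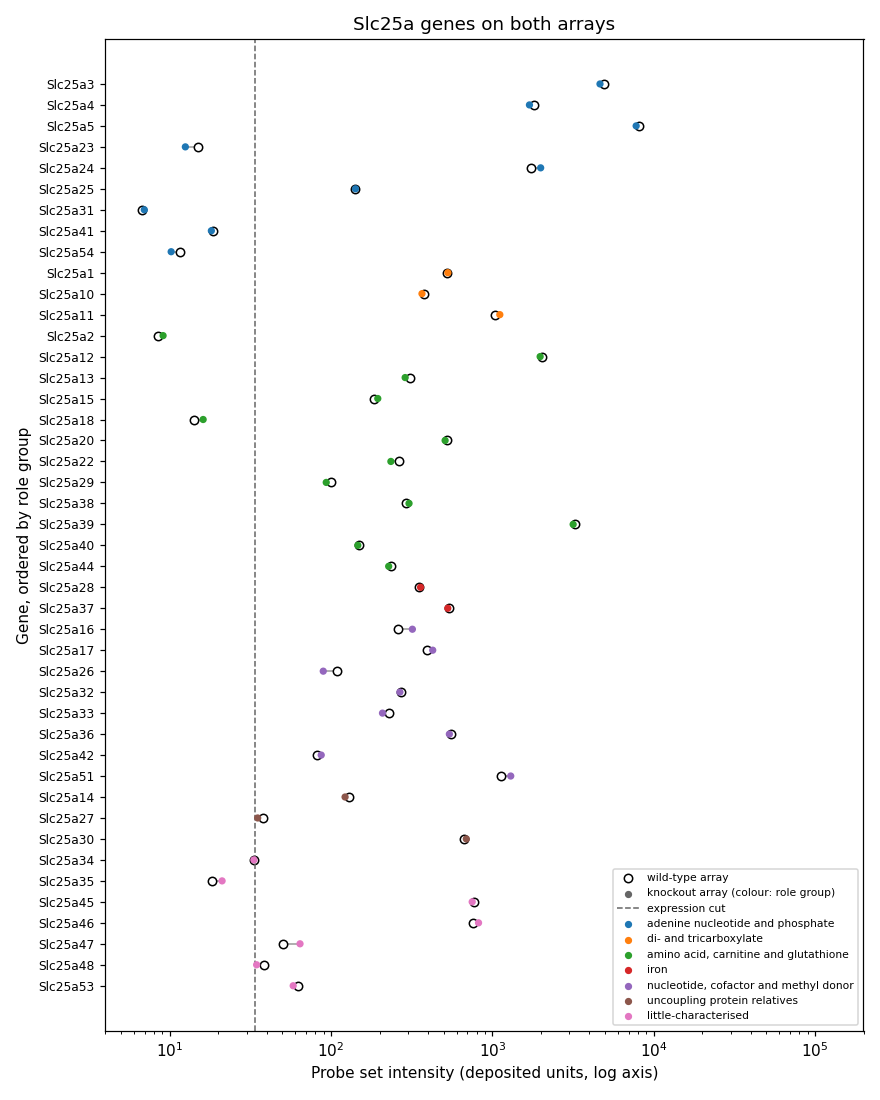
Each row is 1 of 44 Slc25a genes in order of role group, with the intensity of its chosen probe set on a log axis as an open circle for the wild-type array and a filled point for the knockout array. The dashed line is the expression cut at an intensity of 33.9, with 8 genes to its left, and the symbols of both arrays touch or nearly touch on most rows. Intensities of different genes come from different probes and are not ordered amounts of RNA.

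Carriers of di- and tricarboxylates link the citric acid cycle to the cytosol, and all 3 measured were expressed, with differences from -0.035 to 0.10. Slc25a1, which exports citrate for lipid synthesis, gave 523 in wild type and 530 in the knockout (0.019). Slc25a11, the oxoglutarate/malate carrier of the malate-aspartate shuttle, gave 1037 and 1113 (0.10). Slc25a10, the dicarboxylate carrier, gave 376 and 366 (-0.035), and its other probe set gave -0.13.

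The carriers of amino acids, carnitine and glutathione were the largest group, with 12 measured and 10 expressed. Of these, 2 were higher and 8 lower (median -0.044), while 49.7% of all expressed genes were higher. Every expressed member lay between -0.16 and 0.067, and 79.6% of all expressed genes lay within 0.2 of no difference. The difference between this group and all expressed genes was not tested. The other partners of the malate-aspartate shuttle, the aspartate/glutamate carriers, were both slightly lower. Slc25a12 gave 2037 in wild type and 1979 in the knockout (-0.042), with other probe sets at 0.33 and -0.21. Slc25a13 gave 311 and 288 (-0.10). The lowest member was Slc25a22, a glutamate carrier, at 265 and 235 (-0.16), and 12.9% of all expressed genes stood at or below it. Its relative Slc25a18 was not expressed, at intensities of 14.1 and 16.1.

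Slc25a20, the carnitine/acylcarnitine carrier needed for fatty acid oxidation, gave 526 in wild type and 509.8 in the knockout (-0.043), and its other probe set -0.093. Slc25a15, the ornithine carrier, gave 185 and 195 (0.067), while the ornithine carrier Slc25a2 was not expressed. Slc25a29, a carrier of basic amino acids, gave 100.05 and 93.4 (-0.085), but its 4 expressed probe sets ran from -0.28 to 0.042. Slc25a44, a carrier of branched-chain amino acids, was slightly lower on both expressed probe sets (-0.049 and -0.036).

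Carriers that serve iron, heme and glutathione were close to level. Slc25a37, mitoferrin 1, which imports iron in developing red cells, gave 540.1 in wild type and 529.6 in the knockout (-0.027). Slc25a28, mitoferrin 2, its counterpart in other cells, gave 349.8 and 359 (0.036). Slc25a38, the glycine carrier of heme synthesis, gave 292 and 305 (0.058). Slc25a39, which carries glutathione, gave 3270 and 3170 (-0.045) on its brightest probe set and up to 0.046 on its other 3 expressed ones. Its relative Slc25a40 gave 149 and 147 (-0.019). The erythroid markers Hba-a1 and Alas2 were below the expression cut on these arrays. Klf1 (-0.17), Epor (0.18) and Gata1 (-0.22) were dim but expressed, and their part in the mitoferrin signal was not tested.

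Carriers of nucleotides, cofactors and the methyl donor S-adenosylmethionine held the extremes on both sides. Of 8 measured and expressed, 4 were higher and 4 lower (median 0.027, and -0.037 when all probe sets were averaged). Slc25a16, a carrier linked to coenzyme A import, had the highest difference of the family, at intensities of 259 in wild type and 319.5 in the knockout (0.29). It rests on a single probe set, and 647 of 11006 expressed genes stood at or above it (5.88%). Slc25a42, the coenzyme A carrier, differed less, at 82.2 and 87.0 (0.068). Slc25a17, which carries coenzyme A and other cofactors into peroxisomes, gave 392 and 427 (0.12), and a probe set of this gene below the cut gave -0.26.

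Slc25a26, which imports S-adenosylmethionine for methylation inside mitochondria, was the lowest carrier. Its intensities were 109.7 in wild type and 89.5 in the knockout (-0.25), and its other expressed probe set gave 42.2 and 33.0 (-0.25). Both probe sets have suffixes that mark shared sequence and both are dim, and 520 expressed genes (4.72%) stood at or below it. Slc25a51, the NAD importer, showed no single direction. Its brightest probe set gave 1134 and 1301 (0.20), another gave 279 and 242 (-0.19) and the last 55.4 and 54.2 (-0.026). The pyrimidine nucleotide carriers Slc25a33 (227 and 209, -0.12) and Slc25a36 (555 and 542, -0.035) were both lower on their chosen probe sets, and the other expressed probe set of Slc25a36 gave 0.14. Slc25a32, a folate and flavin carrier, was level at 269.98 and 267 (-0.013).

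Relatives of the uncoupling proteins differed little on their chosen probe sets. Slc25a14 gave 129 in wild type and 122 in the knockout (-0.069), and Slc25a27 gave 38.0 and 35.1 (-0.080), just above the expression cut. Slc25a30 gave 668 and 690.3 (0.046) on its brightest probe set. Its other 3 expressed probe sets gave 0.28, -0.019 and 0.49, the last at intensities of 48.6 and 74.5, which is the largest difference of any expressed carrier probe set. Thus 3 of its 4 expressed probe sets were higher, by very unequal amounts.

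Among the little-characterised members, 5 of 7 measured were expressed, 2 higher and 3 lower (median -0.043, and 0.054 when all probe sets were averaged). Slc25a47, a carrier best known from liver, was the other gene past 0.25, at dim intensities of 50.7 in wild type and 64.3 in the knockout (0.27), from a single probe set with a shared suffix. Slc25a46, an outer membrane protein that acts in mitochondrial dynamics, gave 764 and 821 (0.10), with 0.0056 on its other probe set. Slc25a45 gave 773.5 and 750.2 (-0.043). Slc25a48 gave 38.5 and 34.6 (-0.11). Slc25a53 gave 62.2 and 58.3 (-0.075), and its other probe set gave 34.2 and 48.0 (0.35).

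The 8 carriers that did not count as expressed had intensities between 6.76 and 33.5 in wild type and between 6.96 and 33.3 in the knockout. They were Slc25a2, Slc25a18, Slc25a23, Slc25a31, Slc25a34, Slc25a35, Slc25a41 and Slc25a54. Slc25a34 lay just below the cut, at 33.5 and 33.3, and Slc25a27 and Slc25a48 just above it. Slc25a21 and Slc25a43 were not analysed here. A further probe set annotated to Slc25a37 together with another gene was left out by the rule.

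The carriers are scattered over the genome, and the only neighbouring pair with both genes expressed was Slc25a29 and Slc25a47. RefSeq places these genes next to each other on chromosome 12, where they stood at -0.085 and 0.27. The 4 expressed probe sets of Slc25a29 ran from -0.28 to 0.042, and Slc25a47 has a single dim probe set. An effect of position was not tested. Slc25a23 and Slc25a41 are adjacent on chromosome 17, and neither was expressed. On chromosome 3, Slc25a24 is next to the unexpressed Slc25a54. The 3 measured carriers on the X chromosome, where miR-223 is also encoded, stood at -0.057 (Slc25a5), -0.069 (Slc25a14) and -0.075 (Slc25a53). These are chosen probe sets, and 22 of all 36 expressed carriers were lower. The other probe set of Slc25a53 gave 0.35, and the 8 of Slc25a5 ran from -0.21 to 0.21.

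Of the family members under other names, 3 were expressed, 1 higher and 2 lower, with a median of -0.046 that turned to 0.037 over 2 genes without probe sets of shared suffix classes. Mtch1 and Mtch2, outer membrane relatives of the carriers, gave -0.12 and -0.046. Ucp3, an uncoupling protein, gave 57.9 in wild type and 67.0 in the knockout (0.17), with -0.26 on its other expressed probe set. Ucp1, the uncoupling protein of brown fat, was not expressed, and Ucp2 was not analysed here.

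Other transporters of the mitochondrial membranes, from a list of pyruvate, sideroflexin, calcium, ABC and porin genes, were divided. Of 17 measured and expressed, 8 were higher and 9 lower (median -0.022, and 0.070 when all probe sets were averaged). The sideroflexin Sfxn2 stood apart, at 136 in wild type and 76.4 in the knockout (-0.72), but its other expressed probe set gave -0.029. Sfxn3 gave 94.4 and 114 (0.24). Abcb10, an ABC transporter of the inner membrane needed in heme synthesis, gave 345 and 394 (0.19), with 0.34 on its other expressed probe set.

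The import machinery that delivers carriers to the inner membrane gave mostly lower values on the chosen probe sets. It comprises receptors and the channel of the outer membrane, small chaperones between the membranes and the carrier translocase. Of 11 genes measured and expressed, 10 were lower and 1 higher, with a median of -0.17, while 49.7% of all expressed genes were higher. With all probe sets averaged, 8 were lower. The largest differences of chosen probe sets were in small chaperone genes. Timm8a1 gave 1429 in wild type and 1217 in the knockout (-0.23), with -0.11 on its other probe set. Timm10 gave 676 and 587 (-0.20), and Timm8b gave 1255 and 1102 (-0.19). Of the 10 lower genes, 4 also had an expressed probe set that was higher. These were Timm9, another small chaperone (0.34), Timm29 (0.17), Tomm70a (0.072) and Timm22 (0.0031), named after their values were seen. No member reached 0.25 on its chosen probe set. Without probe sets of shared suffix classes, 6 of 8 remaining genes were lower and the median was -0.079. The difference between this list and the carriers was not tested.

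**Figure D4:**
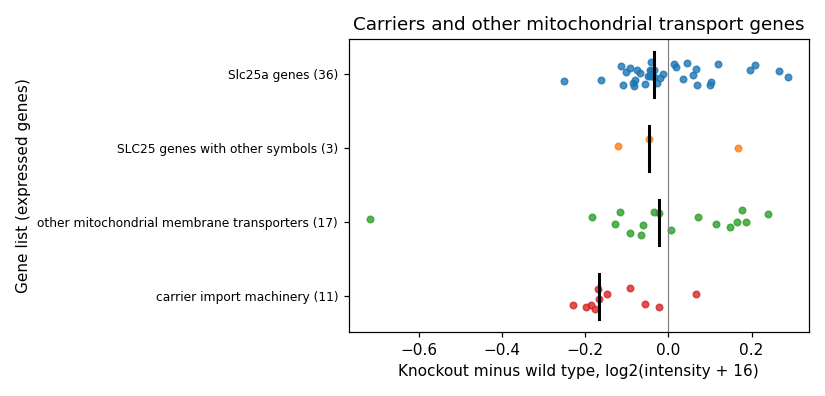
Each point is an expressed gene of the Slc25a family or of a list of related mitochondrial genes, placed by its difference, knockout minus wild type on the log2(intensity + 16) scale, with small vertical offsets for visibility. Black bars are list medians, which are -0.035 for 36 Slc25a genes, -0.046 for 3 genes of other symbols, -0.022 for 17 other transporters and -0.17 for 11 import genes.

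Technical and cell type values are of the size of these differences or larger. The spiked-in controls gave lower signal in the knockout, with a median of -0.17 over the poly-A controls (24 of 24 lower) and -0.11 over the hybridization controls (17 of 18 lower), and no value was adjusted to them. Neutrophil lineage markers were bright on both arrays, with 9 of 10 higher and a median of 0.13, and their summed intensity was 154092 and 162551. Mast cell and basophil markers summed to 6542 and 4556 (8 of 8 lower, median -0.54). Megakaryocyte and platelet markers summed to 2020 and 1299 (6 of 7 lower, median -0.46). That median moved to -0.91 for the 3 genes left by a filter at the 75th percentile, and to -0.28 when 64 was added before taking logs. Monocyte and macrophage markers summed to 11744 and 13446 (6 of 8 higher, median 0.14). Of the other lists, 3 of 4 eosinophil, 4 of 4 MHC class II, 2 of 3 erythroid and 1 of 2 T and NK cell markers were lower, while the only expressed B cell and stromal markers were higher. Stromal Cdh5, Col1a1 and Col3a1 were below the cut. The part of these markers and controls in the carrier values was not tested.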

How the data were processed

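Total RNA had been extracted with Trizol and turned into biotinylated cRNA with the Affymetrix 3' IVT Express kit, per the labels' protocols, so signal comes mainly from transcript 3' ends. The authors deposited 1 linear intensity for each of 45101 probe sets and array, while background correction, summarization and normalization are steps not given in the sources used here. Values were used as deposited, with medians of 34.1 (wild type) and 33.7 (knockout) over probe sets other than the 64 controls. The platform annotation named 34945 probe sets for 1 gene, 932 for several and 9160 for none, and those of 1 gene were used. Symbols were updated through RefSeq (GRCm38.p6), which also gave chromosomes and gene order.

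Intensities were transformed to log2(intensity + 16), which understates differences of dim genes. With 1 array per group no test was run. Alternatives were pseudocounts of 1 and 64, median centring, quantile normalization and loess subtraction (span 0.3). Others were no expression filter or a stricter one (75th percentile), averaging all probe sets, and no probe sets of shared suffix. The average took in probe sets below the expression cut, and of the 93 probe sets of the family 69 were expressed. All members of the family could be named, with every related family gene and the 3 largest differences of each longer list. Genes, role groups and marker lists were chosen with earlier results of these data known. The procedure was tested on simulated data. The differences planted there were larger than that of any carrier and were in brighter genes only, so recovery of small differences was not tested. Python 3.11.15, pandas 2.3.3 and statsmodels 0.14.6 were used.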

Additional observations from a re-analysis of the deposited data

How the results depend on the processing

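No alternative put a carrier at 0.5 or more. Signs of the expressed carriers were kept by 36 of 36 under either pseudocount, median centring and no filter, by 26 of 26 under the stricter filter, by 35 of 36 under loess and 34 of 36 under quantile normalization. They were kept by 28 of 36 with the mean of all probe sets and 28 of 30 without shared suffix classes. Higher against lower carriers were 12 and 24 under quantile normalization. With a pseudocount of 64, 0 carriers were higher and 0 lower by 0.25 or more, where all expressed genes gave 5.21% and 2.57%. Median centring left 0 lower (all genes 4.16%), the stricter filter 1 higher and 0 lower (7.62% and 3.66%), and no shared suffix classes 1 higher and 1 lower (8.58% and 4.73%), with Slc25a29 (-0.28) as the lower one, since Slc25a26 had no other probe set. With the mean of all probe sets, medians were -0.0069 for the family, 0.062 for adenine nucleotide and phosphate carriers, -0.037 for nucleotide and cofactor carriers, 0.054 for little-characterised members and 0.070 for other transporters. Without shared suffix classes they were 0.11 for adenine nucleotide and phosphate carriers, 0.12 for nucleotide and cofactor carriers, -0.079 for the import genes, of which 6 were lower, and 0.037 for family members of other symbols. There Slc25a3 stood at 0.21. The cause was not tested beyond the change of probe sets that both settings make. No paired analysis was possible because each genotype has 1 array.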
